A study of Rattus norvegicus with 8 samples.

Results

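The reserve zone of the rat femur growth plate was compared with its hypertrophic zone, across all genes on an Affymetrix array. The comparison takes 4 of the 8 arrays of the study by their labelled zone, 2 from the reserve zone and 2 from the hypertrophic zone. In each zone, 1 array came from rats aged 42 days and 1 from rats aged 46 days, and each array received RNA pooled from 3 rats (Rattus norvegicus). The other 4 arrays, from the perichondral and proliferative zones at the same ages, entered the estimate of the spread, and their levels are given beside a few genes. No treatment or mutation is named for any group. The sources used here do not give strain, sex or the method of separating the zones, nor do they say if 1 set of rats supplied all zones of an age. The 2 arrays of a zone differ in age as well as in rats, so p-values measure a spread that holds both.

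The growth plate is the cartilage through which long bones lengthen. Its reserve zone, next to the epiphysis, holds slowly dividing round chondrocytes in abundant matrix, from which columns of proliferating cells arise. At the other end of the plate these cells enlarge, switch to collagen X and calcify their matrix, and vessels, osteoclasts and bone-forming cells then replace the cartilage. Parathyroid hormone-related protein, made towards the reserve end, and Indian hedgehog, made by cells that are about to enlarge, are known to control when a chondrocyte becomes hypertrophic.

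Ucma and Col10a1 passed the test in opposite directions and are known as markers of opposite ends of the plate, so the sequence before the start of each is shown. Both are the 250 bases upstream of the annotated start, 5′ to 3′ on the gene's own strand, from RefSeq on build GRCr8. Ucma lies on the minus strand, with this stretch at chr17:78212997-78213246. Col10a1 lies on the plus strand, with its stretch at chr20:39737286-39737535.
Ucma: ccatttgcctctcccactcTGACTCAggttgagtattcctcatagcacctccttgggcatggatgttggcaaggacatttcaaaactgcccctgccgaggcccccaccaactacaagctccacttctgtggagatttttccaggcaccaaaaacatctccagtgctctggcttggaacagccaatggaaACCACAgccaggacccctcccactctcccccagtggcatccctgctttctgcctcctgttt
Col10a1: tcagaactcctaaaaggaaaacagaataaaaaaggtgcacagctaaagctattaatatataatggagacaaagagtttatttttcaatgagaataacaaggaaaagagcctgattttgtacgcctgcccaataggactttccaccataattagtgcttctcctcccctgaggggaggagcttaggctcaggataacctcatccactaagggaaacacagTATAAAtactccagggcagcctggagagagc
Capitals mark every match to 4 motifs searched on both strands, which were the SOX core ACAAT, the RUNX site ACCACA, the AP-1 site TGANTCA and the TATA box TATAAA. In Ucma, an AP-1 match began 231 bases before the start and a RUNX match 61 bases before it. In Col10a1, a TATA match began 31 bases before the start. Among 33469 rat promoter windows in the same table, 6.34% held the AP-1 letters, 14.5% the RUNX letters, 12.9% the TATA letters and 30.0% the SOX core. These matches describe letters and were not tested as sites.

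All levels below are log2(intensity + 16) after quantile normalization, where the median of an array was 8.25, and a difference is reserve minus hypertrophic on that scale. As a yardstick of background, 35 genes typical of other organs were followed. Their 0.95 quantile over the 8 arrays, 9.81, is named the other-organ level below. Of these genes, 4 (11.4%) had both reserve arrays above both hypertrophic arrays and 9 (25.7%) below, beside 20.6% and 18.8% of all genes. Their median difference was -0.52. The labelled tissue was checked on Col2a1, the main collagen of cartilage, which measured 17.58 and 17.40 in the 42-day and 46-day reserve arrays, against 17.13 and 15.86 in the hypertrophic arrays. Over the brightest share of 0.2 of probe sets, the reserve arrays correlated with each other at r = 0.769 and the hypertrophic arrays at r = 0.531. Reserve and hypertrophic arrays correlated at 0.357 to 0.683. The 46-day hypertrophic array stood apart from its own zone, since it correlated at 0.735 with the 46-day proliferative array. These correlations run across genes, which are not independent replicates. The ratio of 3′ to 5′ Gapdh signal, a sign of RNA integrity, was 8.15 and 3.96 in reserve and 4.30 and 3.63 in hypertrophic arrays. The same ratio for actin was 4.65 and 2.32 in reserve and 1.71 and 4.59 in hypertrophic arrays, so the 2 ratios ranked the arrays differently. The part of RNA integrity in the results was not tested.

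Of 31042 probe sets, 6 were higher and 1 was lower in the reserve zone at an adjusted p below 0.05, by limma with Benjamini-Hochberg adjustment over all of them. These counts are 0.0193% and 0.00322% of the probe sets. The higher ones were Nnt, Ucma, Pdzrn3, Fkbp9, Zcrb1 and a probe set with no gene name, and the lower one was Col10a1. At an unadjusted p below 0.05 there were 1512 higher and 1003 lower. With age as a replicate block, 36 probe sets were higher (0.116%) and 2 lower (0.00644%), and all 7 of the first fit were among them. No probe set passed without the younger reserve array or without either perichondral array, and 167 passed without the 42-day hypertrophic array.

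**Figure D1:**
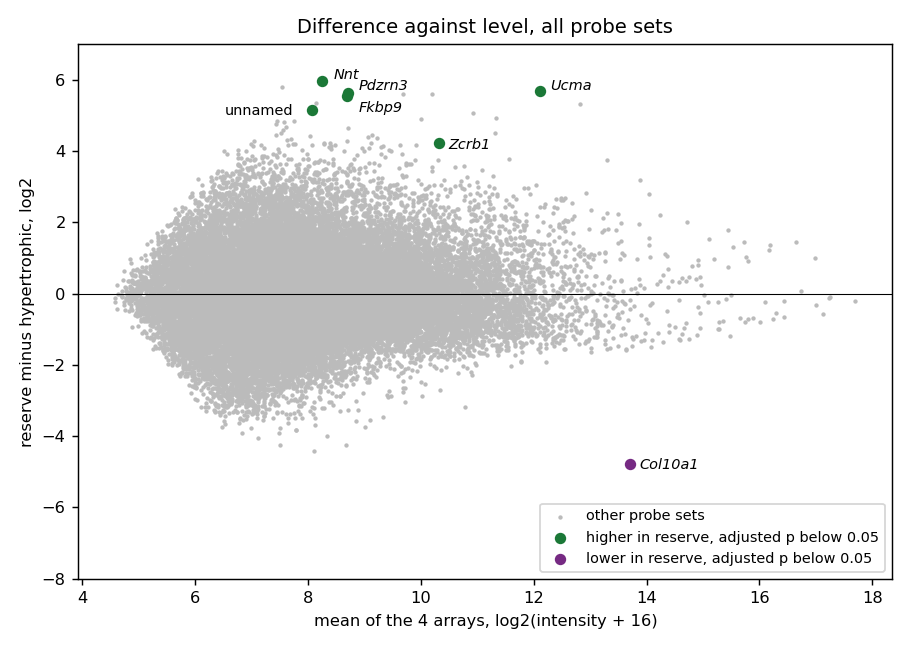
Difference between reserve and hypertrophic arrays (vertical axis, log2, reserve minus hypertrophic) against the mean of the 4 arrays (horizontal axis, log2(intensity + 16)) for 31042 probe sets. Coloured points are the 7 past the threshold: 6 lie between 4.22 and 5.96, and Col10a1 lies at -4.77.

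Ucma encodes a secreted protein of cartilage that carries vitamin K-dependent gla residues. It measured 15.86 and 14.02 in the reserve arrays, against 9.16 and 9.39 in the hypertrophic arrays. The reserve values lay far above the other-organ level and the hypertrophic values below it, with no overlap. The difference was 5.67 (SE 0.70) at an adjusted p of 0.00665 by limma. It was 4.75 at an adjusted p of 0.354 without the 42-day reserve array, which was the higher of the 2, and 6.59 at 0.0164 without the 46-day one. Without the 42-day hypertrophic array it was 5.55 at 0.017, and without the 46-day one 5.78 at 0.0656. In the zones that were not compared, Ucma measured 15.80 and 14.99 in perichondral and 14.19 and 12.90 in proliferative arrays.

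Col10a1 encodes collagen X, the collagen that marks the hypertrophic chondrocyte. It measured 11.78 and 10.88 in the reserve arrays, against 16.93 and 15.26 in the hypertrophic arrays. Both hypertrophic arrays lay above both reserve arrays, and all 4 values were above the other-organ level. The difference was -4.77 (SE 0.72), a level 27.2-fold higher in the hypertrophic zone, at an adjusted p of 0.0233. Without the 42-day or the 46-day reserve array the gene did not pass, with differences of -5.21 and -4.32 and adjusted p of 0.469 and 0.255. Without the 42-day hypertrophic array, the higher of the 2, the difference was -3.93 at 0.0343, and without the 46-day one -5.60 at 0.0222. The perichondral arrays measured 13.66 and 13.78 and the proliferative arrays 12.62 and 10.94.

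Nnt encodes an inner mitochondrial membrane enzyme that makes NADPH. It measured 11.12 and 11.34 in the reserve arrays, against 5.21 and 5.35 in the hypertrophic arrays. Its arrays of one zone lay closest together among the called genes, with SDs of 0.16 in reserve and 0.10 in hypertrophic arrays (n = 2 each). The difference was 5.96 (SE 0.74) at an adjusted p of 0.00665. No fold is given, since the hypertrophic values lay far below the other-organ level and the pseudocount set the size, at 6.66 with a pseudocount of 1 and 4.82 with 64. The gene did not pass without the 42-day or the 46-day reserve array, at adjusted p of 0.354 and 0.0934, and passed without the 42-day or the 46-day hypertrophic array, at 0.0083 and 0.0222.

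Pdzrn3, a ubiquitin ligase with PDZ domains, measured 12.43 and 10.60 in reserve arrays, against 6.24 and 5.55 in hypertrophic arrays. The difference was 5.62 (SE 0.79) at an adjusted p of 0.0162, and 0.0771 without the 46-day hypertrophic array. Fkbp9, a prolyl isomerase of the endoplasmic reticulum, measured 12.31 and 10.63 in reserve arrays, against 5.54 and 6.32 in hypertrophic arrays. Its difference was 5.54 (SE 0.78), with an adjusted p of 0.0162, and 0.0307 without the 46-day hypertrophic array. Zcrb1, an RNA-binding protein of the minor spliceosome, measured 12.78 and 12.09 in reserve arrays, against 8.53 and 7.89 in hypertrophic arrays. Its difference was 4.22 (SE 0.67) at an adjusted p of 0.0405, and 0.129 without that array. The probe set with no gene name measured 11.35 and 9.94 in reserve arrays, against 4.92 and 6.07 in hypertrophic arrays, at an adjusted p of 0.0213. Pdzrn3, Fkbp9, Zcrb1 and the unnamed probe set did not pass without the 42-day reserve array, each at an adjusted p of 0.999, nor without the 46-day reserve array, at 0.0605 to 0.165. For all 6 higher probe sets the hypertrophic mean was below the other-organ level, where the size of a difference depends on the pseudocount.

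The next genes by p-value did not pass the threshold and are given as values. Fibromodulin (Fmod), a collagen-binding proteoglycan, measured 14.13 and 11.86 in reserve arrays, against 8.55 and 6.24 in hypertrophic arrays (difference 5.60, SE 0.94, adjusted p 0.0646). Osteomodulin (Omd), of the same family, measured 13.78 and 11.12 in reserve arrays, against 8.08 and 7.04 in hypertrophic arrays (adjusted p 0.154). S100a9, a calcium-binding protein abundant in neutrophils, measured 13.34 and 13.56 in reserve arrays, against 10.13 and 9.20 in hypertrophic arrays (adjusted p 0.215). Each of these had an adjusted p below the threshold with age as a block, at 2.96e-05 for Fmod, 0.00167 for Omd and 0.031 for S100a9. Reep5, which shapes the endoplasmic reticulum, and Phf20l1, a reader of methylated lysine, also lay among them, with differences of 4.83 and 3.61. A second probe set of Reep5 gave 0.68, and those of Phf20l1 gave 0.01 to 1.99.

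Towards the hypertrophic zone, Col10a1 was followed by genes that did not pass. Tomm40, the channel for protein import into mitochondria, measured 6.06 and 6.6 in reserve arrays, against 10.50 and 10.17 in hypertrophic arrays (difference -4.00, adjusted p 0.216). Hoxd10, a homeobox factor, measured 7.43 and 8.61 in reserve arrays, against 11.03 and 10.78 in hypertrophic arrays (difference -2.88, adjusted p 0.251). Klf6, a zinc finger transcription factor, measured 10.47 and 11.16 in reserve arrays, against 12.64 and 12.83 in hypertrophic arrays (difference -1.92, adjusted p 0.407). The groups of each did not overlap. Other probe sets of Klf6 gave -1.37 and 0.24. The rest were Lrp1, Cgnl1, Fbxo39, Rnf150, Ncam1 and Serpina4, with differences from -4.25 (Cgnl1) to -2.29 (Ncam1). Other probe sets of Lrp1 and Cgnl1 gave differences above 0, at 0.66 and 1.66, and those of Ncam1 gave -0.18 each.

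**Figure D2:**
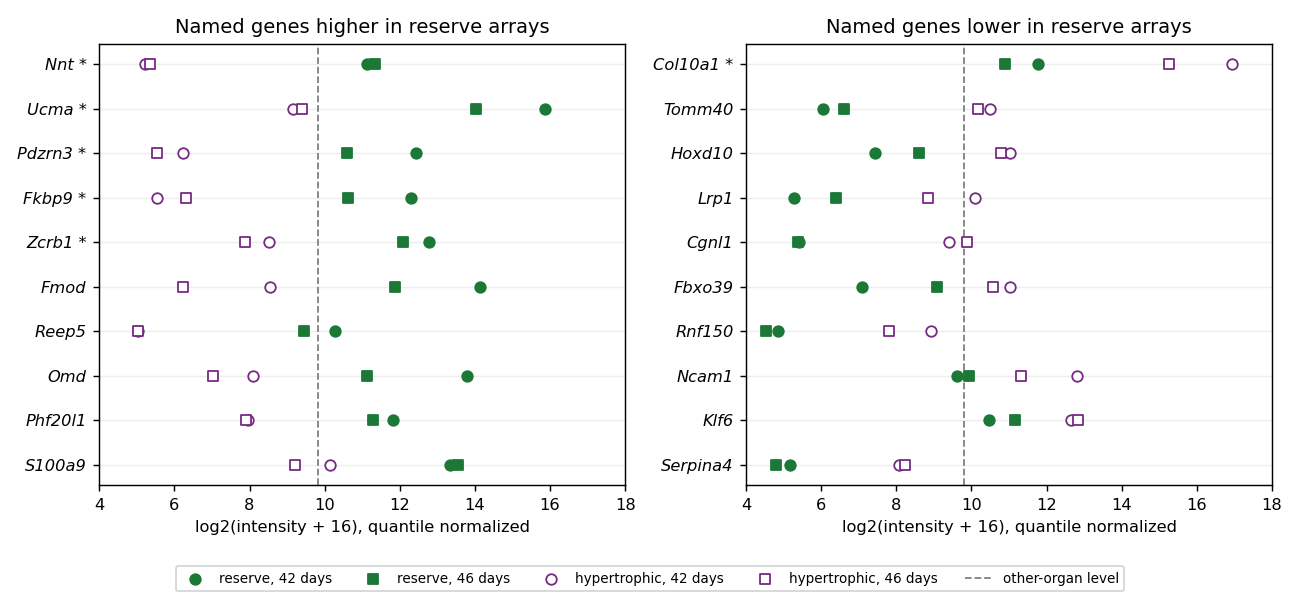
Level of each named gene in the 4 arrays (horizontal axis, log2(intensity + 16), quantile normalized), with reserve arrays as filled and hypertrophic arrays as open points, circles for 42 days and squares for 46 days. Asterisks mark the 6 genes past the threshold, and the dashed line is the other-organ level of 9.81; the 5 named genes past the threshold in the left panel have every hypertrophic point left of that line.

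Genes of the cartilage matrix lay mostly above in the reserve zone. Of 23 measured members, 1 (Ucma) passed the test and none fell, and 15 had both reserve arrays above both hypertrophic arrays, against 0 below. Over all 14217 genes, 20.6% had both reserve arrays above and 18.8% below. The median difference of the list was 1.57, against 0.07 over all genes, and it was 1.78 in the 42-day and 1.43 in the 46-day arrays. Without the 46-day hypertrophic array, 16 members were above and 1 below, with a median of 1.0, beside 36.0% and 35.8% of all genes in the same 3 arrays. Without the 42-day reserve array the list had 15 above, 1 below and a median of 0.89, beside 33.0% and 31.6% of all genes.

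Col9a1, a chain of collagen IX on the surface of cartilage fibrils, measured 15.97 and 14.39 in reserve arrays, against 12.84 and 10.02 in hypertrophic arrays. Its difference of 3.75 (SE 0.90) had an adjusted p of 0.286, and 0.00312 with age as a block. Aggrecan (Acan), the large proteoglycan that holds water in cartilage, measured 14.12 and 12.03 in reserve arrays, against 12.19 and 10.66 in hypertrophic arrays, and the groups overlapped. Comp, which links collagen fibrils, measured 11.53 and 10.08 in reserve arrays, against 10.47 and 9.05 in hypertrophic arrays, again with overlap. Matn1, a matrilin, had a difference of 0.66 (SE 0.63, adjusted p 0.821) and Col2a1 one of 1.0 (SE 1.25, adjusted p 0.87). Crtac1, at -0.56, was the only measured member with a difference below 0.

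The small leucine-rich proteoglycans, which bind collagen fibrils and growth factors, had the highest median of the 30 lists. None of 10 measured members passed the test, 6 had both reserve arrays above and none below, and the median difference was 3.86. The shares of all genes were 20.6% above and 18.8% below. With the mean of all probe sets of a gene, the median of the list was 3.14. Beside Fmod and Omd, the 6 members above were Prelp, Ogn, Bgn and Chad. Fmod, Prelp and Chad are also counted in the cartilage matrix list. Biglycan (Bgn) measured 12.79 and 9.65 in reserve arrays, against 6.45 and 7.56 in hypertrophic arrays (difference 4.22, adjusted p 0.216). Chondroadherin (Chad), which binds integrins on chondrocytes, measured 11.27 and 9.03 in reserve arrays, against 6.11 and 5.85 in hypertrophic arrays (difference 4.16, adjusted p 0.216). Prelp measured 11.09 and 8.53 in reserve arrays, against 4.95 and 5.16 in hypertrophic arrays (difference 4.76, adjusted p 0.247). With age as a block, Bgn and Chad had adjusted p of 0.0344 and 0.0439, and Prelp 0.0811. The 4 others, Dcn, Lum, Aspn and Podn, had groups that overlapped, with differences from -0.62 to 2.11. Lumican (Lum) measured 11.63 and 13.41 in reserve arrays, against 13.70 and 7.12 in hypertrophic arrays, and only the 46-day hypertrophic array lay below the reserve values.

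**Figure D3:**
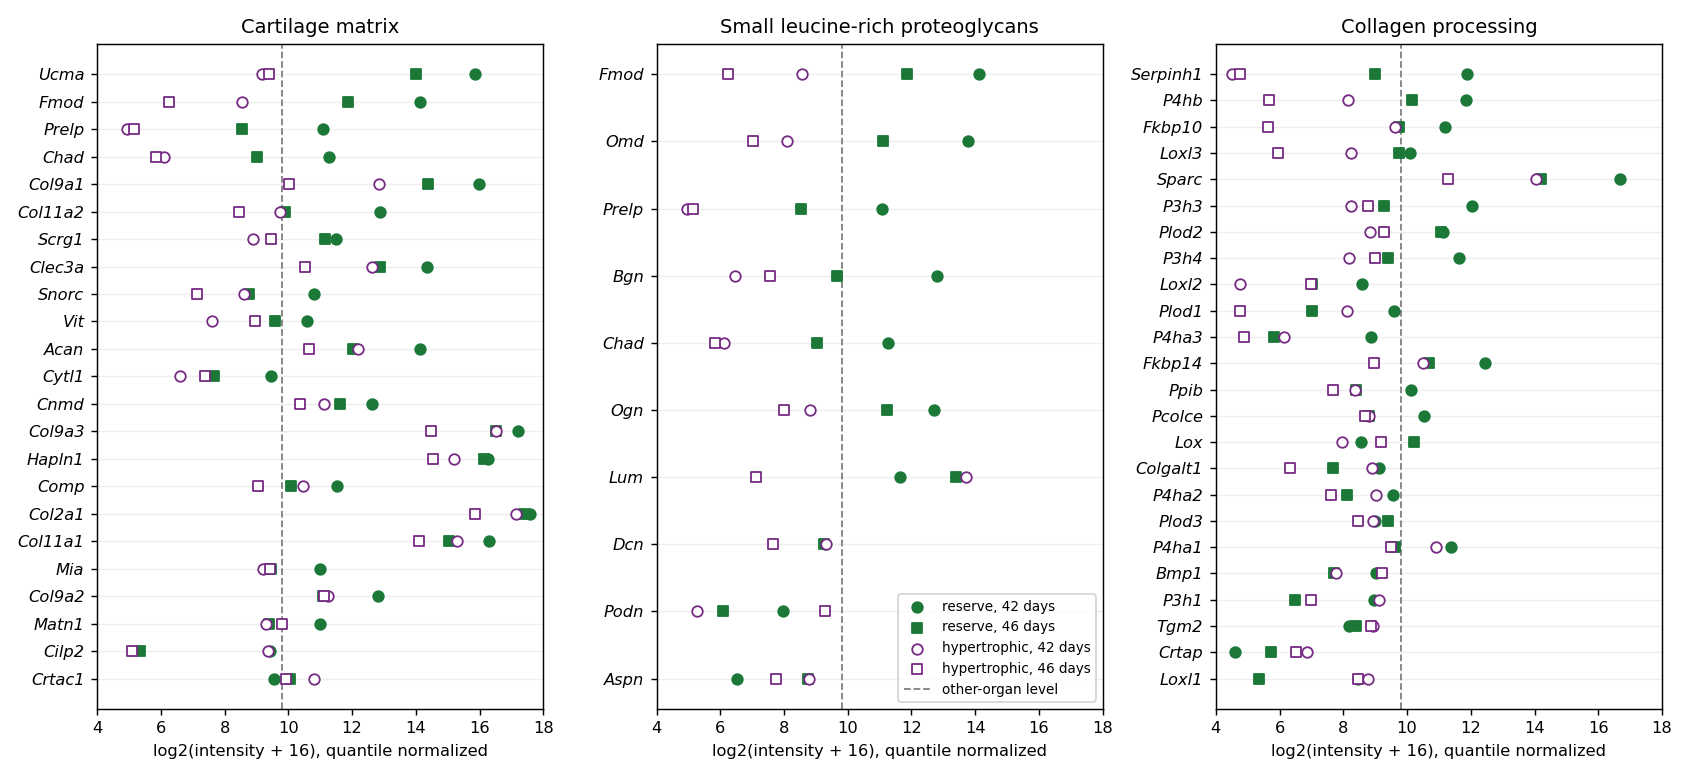
Levels of all measured members of the cartilage matrix, small leucine-rich proteoglycan and collagen processing lists in the 4 arrays (horizontal axis, log2(intensity + 16)), sorted by difference, with symbols as in the plot of named genes. The 6 proteoglycans Fmod, Omd, Prelp, Bgn, Chad and Ogn have both filled points right of both open points.

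Among 16 measured genes known from resting chondrocytes, Ucma passed the test, 10 had both reserve arrays above and 2 below, and the median difference was 1.65. The shares of all genes were 20.6% above and 18.8% below. Only 4 of the 16 had a reserve mean above the other-organ level, and 1 a hypertrophic mean above it. Matrix gla protein (Mgp), an inhibitor of calcification, measured 15.41 and 12.19 in reserve arrays, against 9.99 and 7.77 in hypertrophic arrays. Its difference was 4.91 (SE 1.14, adjusted p 0.251), and its adjusted p was 0.000707 with age as a block. Tgfbi, a matrix protein with fasciclin domains, measured 12.39 and 10.09 in reserve arrays, against 9.23 and 8.12 in hypertrophic arrays (adjusted p 0.443). The following genes were named after their values were seen. Wif1, a secreted Wnt inhibitor, measured 8.90 and 8.65 in reserve arrays, against 4.44 and 5.03 in hypertrophic arrays, and Sfrp5, another, measured 9.34 and 7.72 in reserve arrays, against 5.78 and 4.78 in hypertrophic arrays. All these values were below the other-organ level, and neither gene passed the test. Pthlh, the gene of parathyroid hormone-related protein, and Sox9, Runx2 and Matn3 are not analysed here.

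Collagen chaperones and modifying enzymes had a median difference of 1.55 over 24 measured members, with 12 above, 3 below and none past the threshold. For this list and the 2 below, the shares to compare are 20.6% above and 18.8% below over all genes. Without the 42-day reserve array the median of the collagen list was 0.64. Serpinh1, the collagen-specific chaperone, measured 11.87 and 9.0 in reserve arrays, against 4.52 and 4.76 in hypertrophic arrays (difference 5.80, SE 1.15, adjusted p 0.215). Its second probe set gave 2.23. P4hb, a subunit of prolyl hydroxylase, measured 11.84 and 10.16 in reserve arrays, against 8.15 and 5.66 in hypertrophic arrays (difference 4.09, adjusted p 0.216). Both had adjusted p below the threshold with age as a block, at 0.026 and 0.0119. Sparc, a collagen-binding protein, measured 16.67 and 14.20 in reserve arrays, against 14.04 and 11.27 in hypertrophic arrays (adjusted p 0.502). The prolyl hydroxylase subunits P4ha1 and P4ha2 differed by 0.29 and 0.53. Of 28 genes of protein folding and export from the endoplasmic reticulum, 11 were above and 2 below, with a median of 0.52. Hspa5, the main chaperone there, measured 11.28 and 11.80 in reserve arrays, against 10.22 and 6.52 in hypertrophic arrays (adjusted p 0.407). Of 30 genes that build and sulfate glycosaminoglycans, 12 were above (40.0%) and 5 below (16.7%, near the share of all genes), with a median of 0.61. Papss2, which makes the sulfate donor, measured 15.49 and 13.18 in reserve arrays, against 12.93 and 10.11 in hypertrophic arrays (adjusted p 0.539).

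With age as a block, 31 of the 38 probe sets that passed had a gene name. Apart from those described, 2 were singled out after their values were seen. H19, an imprinted noncoding RNA, measured 15.91 and 10.97 in reserve arrays, against 8.66 and 8.11 in hypertrophic arrays, so its reserve arrays were far apart (adjusted p 0.216, and 0.00403 with the block). Prickle1, a planar cell polarity protein, measured 13.97 and 11.68 in reserve arrays, against 10.04 and 8.67 in hypertrophic arrays (adjusted p 0.216, and 0.00403 with the block).

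Of 20 measured genes known from prehypertrophic and hypertrophic chondrocytes, 1 (Col10a1) passed the test. In this list 2 members had both reserve arrays above and 3 below, beside 20.6% and 18.8% of all genes in the 4 arrays. The median difference was 0.33. The direction turned with the hypertrophic array left out. Without the 46-day one, 3 members were above and 9 below with a median of -0.33, beside 36.0% and 35.8% of all genes. Without the 42-day one, 11 were above and 4 below with a median of 0.73, beside 39.3% and 35.6%. Mmp13, the collagenase that degrades cartilage collagen at the end of the plate, measured 14.75 and 14.73 in reserve arrays, against 14.73 and 14.09 in hypertrophic arrays (difference 0.33, SE 0.66, adjusted p 0.932). Mmp9, a gelatinase of osteoclasts, measured 13.30 and 12.09 in reserve arrays, against 11.79 and 12.48 in hypertrophic arrays. In the proliferative arrays Mmp13 measured 8.65 and 8.57 and Mmp9 measured 5.48 and 5.70. Bone sialoprotein (Ibsp) measured 14.52 and 14.33 in reserve arrays, against 15.66 and 12.47 in hypertrophic arrays. All 3 genes overlapped between the zones.

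Ihh, which encodes Indian hedgehog, measured 5.62 and 5.72 in reserve arrays, against 9.03 and 6.98 in hypertrophic arrays. The groups did not overlap, but every value was below the other-organ level, and the difference of -2.34 (SE 1.16) had an adjusted p of 0.635. Pth1r, the receptor for parathyroid hormone-related protein, had a difference of -0.21 (SE 0.70). Alpl, the phosphatase needed for mineral formation, differed by -0.29 (SE 0.71), Spp1, osteopontin, by 0.51 (SE 0.73) and Vegfa, the vascular growth factor, by 0.38 (SE 0.96). Each of these 4 genes overlapped between the zones. Ankh, a membrane protein that exports pyrophosphate precursors, measured 10.36 and 9.41 in reserve arrays, against 8.29 and 8.13 in hypertrophic arrays (difference 1.68, adjusted p 0.606).

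**Figure D4:**
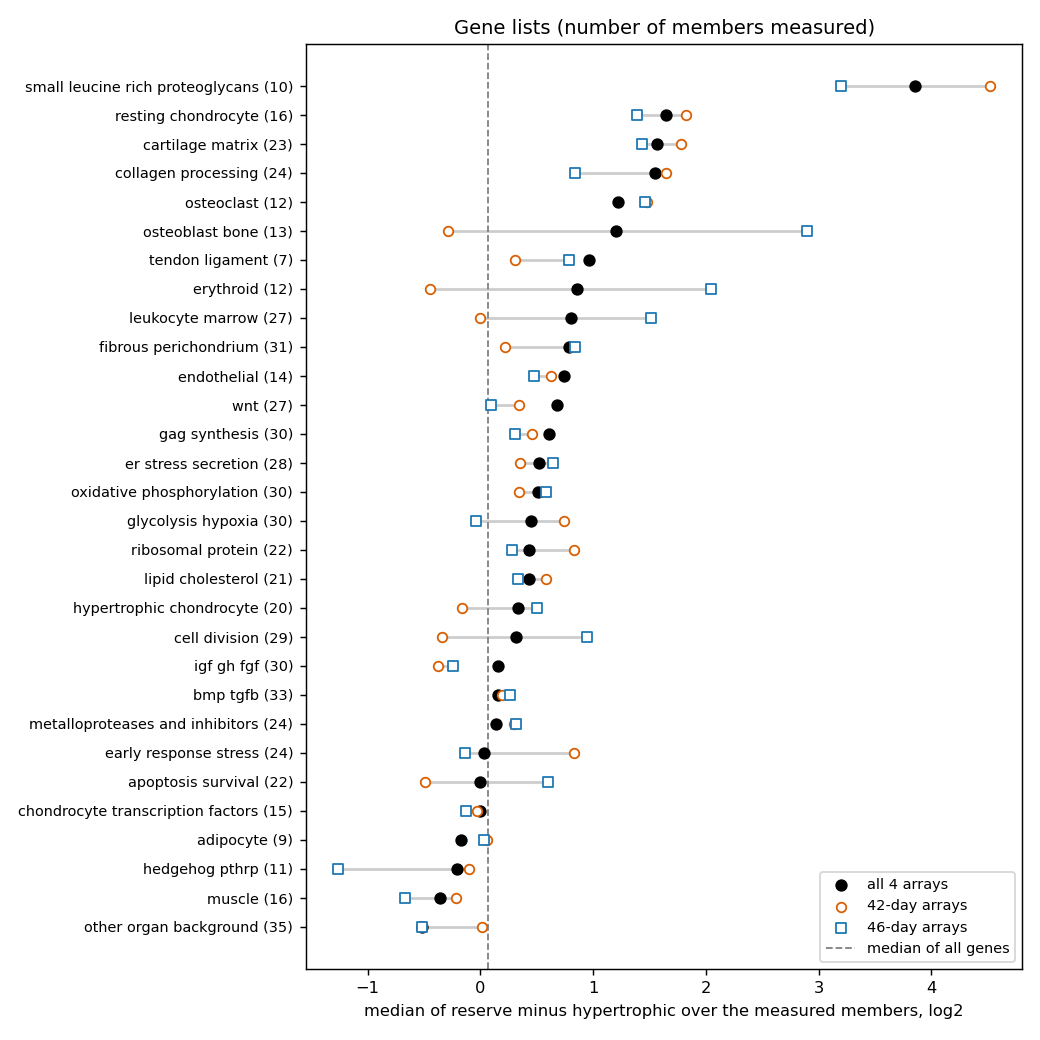
Median difference between reserve and hypertrophic arrays (horizontal axis, log2) for each of 30 gene lists, over all 4 arrays (black), the 42-day arrays (open circles) and the 46-day arrays (open squares), with the number of measured members in brackets. The small leucine-rich proteoglycans lie furthest right at 3.86, and the osteoblast list spans -0.29 at 42 days to 2.90 at 46 days.

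No member of the signalling lists passed the test. Over all genes, 20.6% were above and 18.8% below. Of 27 Wnt genes, 10 were above and 3 below, with a median of 0.68, which was -0.14 without the 42-day reserve array. Tcf7, a transcription factor of the pathway, measured 11.71 and 10.53 in reserve arrays, against 8.61 and 10.06 in hypertrophic arrays (adjusted p 0.518). Of 33 BMP and TGF-beta genes, 7 were above (21.2%) and 6 below (18.2%), near the shares of all genes. Id2, a target of BMP signalling, differed by 2.14 (SE 0.84) and Inhba, a subunit of activin, by -1.38 (SE 0.68). Of 11 hedgehog and parathyroid hormone-related protein genes, 2 were above and 3 below. Boc, a hedgehog co-receptor, measured 13.72 and 9.64 in reserve arrays, against 8.80 and 9.05 in hypertrophic arrays, and the 42-day reserve array lay far above the other 3.

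Of 30 growth hormone, IGF and FGF genes, 5 were above (16.7%) and 6 below (20.0%), beside 20.6% and 18.8% of all genes. Their median was 0.16, and -0.19 and -0.08 without the 42-day or the 46-day hypertrophic array. Fgfr2 measured 10.21 and 10.39 in reserve arrays, against 7.89 and 8.43 in hypertrophic arrays (difference 2.14, SE 0.65, adjusted p 0.436). Fgfr3, the receptor that restrains chondrocyte division, measured 13.59 and 12.73 in reserve arrays, against 12.96 and 13.39 in hypertrophic arrays. Socs2, a brake on growth hormone signalling, measured 8.96 and 10.15 in reserve arrays, against 10.86 and 11.72 in hypertrophic arrays (difference -1.73, adjusted p 0.592). Igf1 differed by -0.44 (SE 0.67), with overlap. The brightest probe set of Igf2 gave -2.98 (adjusted p 0.542), while its other probe sets gave -0.63 to 1.57, so no direction is given.

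Cell division genes had a median of 0.32 over 29 members, with 8 above, 4 below and none past the threshold. Over all genes, 20.6% were above and 18.8% below. Mki67, a marker of cycling cells, measured 12.83 and 13.94 in reserve arrays, against 14.02 and 12.84 in hypertrophic arrays. Without the 42-day reserve array 17 members were above and 4 below, beside 33.0% and 31.6% of all genes, and without the 46-day reserve array 8 were above and 13 below, beside 35.1% and 32.5%. Without the 42-day hypertrophic array 16 were above and 7 below, beside 39.3% and 35.6%, and without the 46-day one 8 and 9, beside 36.0% and 35.8%. The direction thus turned with both the reserve and the hypertrophic array used. Among metabolic genes, 14 of 30 respiratory chain subunits were above and 4 below (median 0.51), as were 9 and 5 of 30 genes of glycolysis and hypoxia (median 0.45, and -0.05 without the 42-day reserve array). Pfkfb3, which speeds glycolysis, measured 11.00 and 9.21 in reserve arrays, against 5.48 and 8.30 in hypertrophic arrays (adjusted p 0.419). Of 22 ribosomal protein genes, 6 were above and 3 below (median 0.43). Rpl4 had the largest difference among those named, 2.41 (SE 0.67, adjusted p 0.407). Of 24 metalloproteases and inhibitors, 8 were above and 2 below (median 0.14), and Timp2, an inhibitor, differed by 2.12 (SE 1.10).

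Genes of bone, marrow and blood cells were measured in both zones, and many were low in the 46-day hypertrophic array. In pooled tissue, fewer cells of a type and less RNA per cell cannot be told apart. The summed intensity of 13 osteoblast and bone genes was 154703 and 166522 in reserve arrays, against 224515 and 16768 in hypertrophic arrays. Over 27 leukocyte and marrow genes it was 47784 and 47179 in reserve arrays, against 28599 and 5081 in hypertrophic arrays. Over 12 erythroid genes it was 25499 and 51355 in reserve arrays, against 17656 and 4633 in hypertrophic arrays. Such sums weight the brightest members most, so they do not describe every member. The largest members were Col1a2, S100a8 and Hemgn, in this order of lists. No member of these lists passed the test. In the 46-day hypertrophic array, 4 osteoblast, 0 leukocyte and 2 erythroid members were above the other-organ level. In the 42-day one these counts were 6, 8 and 4. In the reserve arrays they were 6 and 8, 9 and 9, and 5 and 5. Both reserve arrays were above in 4 osteoblast, 9 leukocyte and 5 erythroid genes and below in 1, 2 and 1, beside 20.6% above and 18.8% below over all genes. Without the 46-day hypertrophic array, 10 leukocyte genes were above and 13 below (median -0.17, against 0.80 with all 4 arrays), 4 osteoblast genes were above and 4 below (median 0.05, against 1.20), and 5 erythroid genes were above and 4 below (median 0.56, against 0.86). Without the 42-day one the counts were 20 and 4, 11 and 2, and 9 and 2, in the same order of lists. The part of such cells in the differences above was not tested.

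Collagen I (Col1a1), the main collagen of bone, measured 15.80 and 15.66 in reserve arrays, against 16.09 and 11.33 in hypertrophic arrays. Osteocalcin (Bglap) measured 9.30 and 11.54 in reserve arrays, against 10.04 and 5.92 in hypertrophic arrays. In both genes the 42-day hypertrophic array lay within or above the reserve values. S100a8, the partner of S100a9 in neutrophils, measured 13.56 and 13.60 in reserve arrays, against 12.10 and 6.02 in hypertrophic arrays (difference 4.52, SE 1.55, adjusted p 0.504). Without the 46-day hypertrophic array its difference was 1.47. Ahsp, the chaperone of alpha globin, measured 10.99 and 12.14 in reserve arrays, against 10.35 and 5.44 in hypertrophic arrays. The median difference was -0.29 at 42 days and 2.90 at 46 days for the osteoblast list, and -0.45 and 2.05 for the erythroid list.

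Osteoclast genes had similar medians at both ages. Of 12 measured members, 6 had both reserve arrays above and none below, beside 20.6% and 18.8% of all genes. The median of the list was 1.22 over all arrays, 1.48 at 42 days and 1.46 at 46 days. None of its members passed the test. Their summed intensity was 23149 and 14912 in reserve arrays, against 9417 and 8208 in hypertrophic arrays. Mmp9 was the largest member of that sum. Itgb3, an integrin chain of osteoclasts, measured 11.71 and 11.13 in reserve arrays, against 8.74 and 8.56 in hypertrophic arrays (adjusted p 0.518). Acp5, the tartrate-resistant phosphatase, named after its values were seen, measured 9.83 and 9.48 in reserve arrays, against 5.40 and 5.01 in hypertrophic arrays (adjusted p 0.308). Ctsk, the collagen-degrading cathepsin, measured 11.24 and 9.54 in reserve arrays, against 9.35 and 8.77 in hypertrophic arrays.

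**Figure D5:**
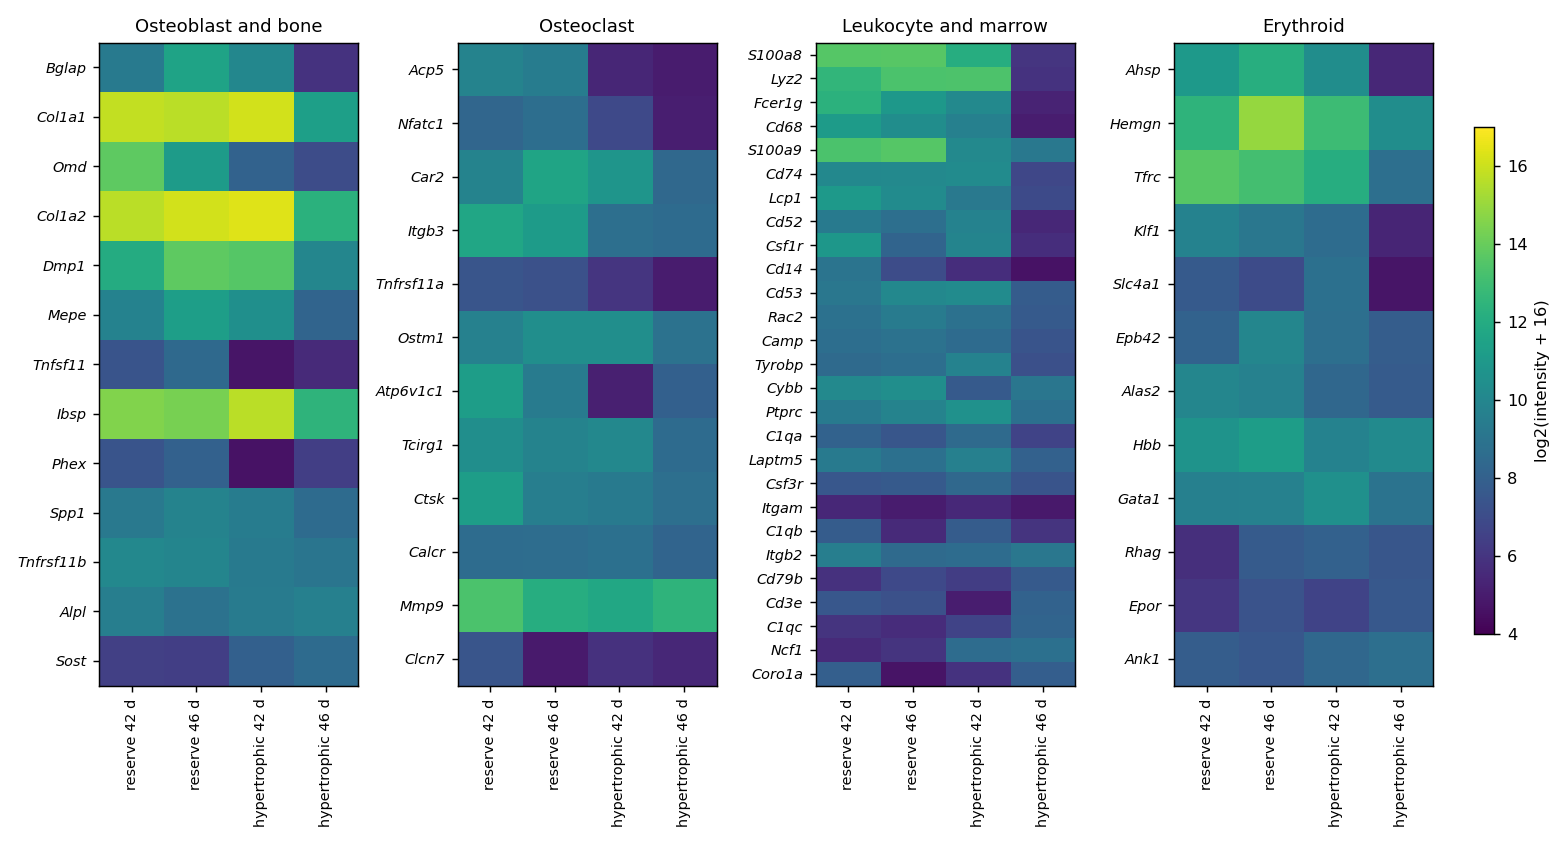
Heat map of levels (colour, log2(intensity + 16)) of the measured osteoblast and bone, osteoclast, leukocyte and marrow, and erythroid genes (rows) in the 2 reserve and 2 hypertrophic arrays (columns), sorted by the 46-day difference. The last column, the 46-day hypertrophic array, is dark for genes such as Bglap (5.92), S100a8 (6.02) and Ahsp (5.44).

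Of 31 genes of fibrous perichondrium and fibroblasts, 6 were above and 1 below, with a median of 0.79 and none past the threshold. Over all genes, 20.6% were above and 18.8% below. Without the 46-day hypertrophic array 9 members were above and 11 below, with a median of 0.09, beside 36.0% and 35.8% of all genes. Pdgfra, a growth factor receptor of mesenchymal cells, measured 13.62 and 14.04 in reserve arrays, against 11.21 and 11.23 in hypertrophic arrays (difference 2.61, SE 0.53, adjusted p 0.216, and 0.0268 with age as a block). Ogn, a proteoglycan, measured 12.72 and 11.22 in reserve arrays, against 8.83 and 8.0 in hypertrophic arrays (difference 3.55, adjusted p 0.216, and 0.00804 with the block). Of 14 endothelial genes, 5 were above and 1 below (median 0.74), and Kdr, a receptor for vascular growth factor, measured 11.58 and 11.50 in reserve arrays, against 10.62 and 9.49 in hypertrophic arrays. Skeletal muscle genes had 0 above and 6 below of 16, with a median of -0.36, and fat cell genes 2 above and 1 below of 9. Only 1 of the muscle genes had a zone mean above the other-organ level. The 35 other-organ genes themselves had 9 below and a median of -0.52. The chondrocyte transcription factors, with 15 measured, had 1 above and 5 below, with 7 differences above 0 and 8 below 0. Atf4, the one above, differed by 1.36. Among those below, Mef2a, Trps1 and Dlx5 differed by only -0.27, -0.19 and -0.08. The last lists were tendon and ligament (2 above and 0 below of 7), lipid synthesis (6 and 1 of 21), cell death and survival (4 and 3 of 22) and early response and heat shock (5 and 2 of 24).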

How the data were processed

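Gene expression was read from 8 arrays, 2 per zone, and all comparisons use the reserve and hypertrophic arrays. The deposited values are linear intensities for 31099 probe sets. Per the submitters' processing notes, MAS5, GCOS and RMA were used, with no versions or roles stated. Per the labels, RNA was extracted with RNeasy, amplified with Ovation and labelled with biotin. The trimmed mean intensity, leaving out a share of 0.02 at each end, lay from 500.08 to 500.16. Detection calls were not used here. The number of arrays limits the precision.

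After 57 control probe sets were left out, log2(intensity + 16) was quantile normalized. A linear model with zone means was fitted, all 8 arrays together, by limma 3.58.1 in R 4.3.3 (eBayes with trend, 4 residual and 12.58 prior degrees of freedom), and p-values were adjusted by Benjamini-Hochberg over 31042 probe sets. Gene names are those of the platform annotation: 20826 probe sets had 1 symbol, 436 several and 9780 none. Of the first, 20758 matched a RefSeq gene identifier, and no symbol changed. Lists used the probe set with the highest mean per gene, giving 14217 genes, and are described by counts and medians only. Summed levels are 2 to the power of the normalized value, minus 16, added over members.

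Genes were named by a rule. It took up to 15 per direction past the threshold without overlap, filled to 10 by p-value. It also took up to 5 members per list with a zone mean above the other-organ level and no overlap, by size of difference. Last, it took 25 growth plate genes whatever their values, and 21 had a probe set. Genes outside the rule are said to be so. Members and lists were chosen with earlier results of these data known. The main fit held zone only, without age. In the alternative fit with a block, age was the paired block because the labels give the same 2 ages to each zone. The 46-day minus 42-day differences of the zones correlated at r = 0.0255 over all probe sets and 0.0715 over the brightest. Alternatives were other scalings, pseudocounts of 1 and 64, dropping the dimmer probe sets, the block, the 4 arrays alone, no variance trend and each array left out.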

Additional observations from a re-analysis of the deposited data

Results flagged for a closer look

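In 5 growth plate genes given in any case, the difference had opposite signs at the 2 ages, with a size above 0.5 at each. The difference is reserve minus hypertrophic, with 1 array per zone and age. Col1a1, Mmp9, Matn1, Vegfa, Spp1 and Alpl also changed sign, with a size below 0.5 at 1 age. Whether the ages differ was not tested. For Bglap, osteocalcin, the difference was -0.75 at 42 days and 5.63 at 46 days. For Ibsp, bone sialoprotein, it was -1.14 at 42 days and 1.85 at 46 days. For Igf1 it was -1.57 at 42 days and 0.69 at 46 days. For Mki67, a marker of cycling cells, it was -1.19 at 42 days and 1.10 at 46 days. For Fgfr3 it was 0.63 at 42 days and -0.66 at 46 days. In Bglap and Ibsp the 46-day hypertrophic array was the lowest of the 4.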

How the results depend on the processing

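The count of 7 probe sets (6 higher, 1 lower) was 6 without normalization (6 higher, 0 lower), 6 with a pseudocount of 1 and 9 with 64. It was 1 with median-centred arrays (1 higher, 0 lower), which moved the median of all genes to 0.21 against 0.07, and 2 among the 15521 brightest probe sets. It was 38 with age as a replicate block (36 higher, 2 lower). It was 0 by limma both with the 4 arrays alone and without the variance trend, where 2282 and 2285 passed an unadjusted p below 0.05. Leaving out 1 array in turn gave 0 to 167: 0 without the 42-day reserve array (1275 at the unadjusted p), 0 without the 42-day or the 46-day perichondral array (2251 and 2230), 3 without the 46-day reserve array, 2 without either proliferative array, 8 without the 46-day and 167 without the 42-day hypertrophic array. All 7 were among the 167 and among the 38. Of 317 alternatives over the 20 genes named by size or p-value, none changed the sign of a difference, and in 10 a gene that had not passed did so. The 6 named genes past the threshold lost the call in 57 of 96 alternatives: Zcrb1 in 12 of 16, Pdzrn3 and Col10a1 in 11 each, Fkbp9 in 10, Ucma in 7 and Nnt in 6. Of 210 alternatives over list medians, 18 had the other sign, and in 11 of 30 lists this happened on leaving out 1 array. Leaving out 1 array also raised the share of all genes with reserve above hypertrophic arrays, to 33.0% to 39.3%. Without the 42-day hypertrophic array the count was 11 of 13 for osteoblast, 20 of 27 for leukocyte, 10 of 12 for osteoclast and 11 of 20 for hypertrophic chondrocyte genes, with 2, 4, 0 and 4 below. Without the 46-day one it was 4 above and 4 below for osteoblast, 10 and 13 for leukocyte, 7 and 1 for osteoclast, and 3 and 9 for hypertrophic chondrocyte genes. The causes were not tested. Detection calls were not used, so values below the other-organ level of 9.81 were not told apart from background.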
